A study of Mus musculus with 12 samples.

Results

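The genes described here encode the pore-forming and auxiliary subunits of voltage-gated sodium channels, voltage-gated calcium channels and hyperpolarization-activated cyclic nucleotide-gated (HCN) channels, and the sodium leak channel. They were taken by symbol: every gene named Scn followed by a number and a or b, Cacna1a to Cacna1i, Cacna2d1 to Cacna2d4, Cacnb1 to Cacnb4, the Hcn genes and Nalcn. This gave 35 genes of the 31766 counted in either region, and all 35 were counted in both. The rule uses symbols only, though it was set with earlier results of these data known. Of the 36 names in the role lists, Scn4a was not analysed here.

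Voltage-gated sodium channels open on depolarization and carry the upstroke of the action potential, and their beta subunits set gating, surface level and adhesion. Voltage-gated calcium channels turn depolarization into calcium entry: the high-voltage types (L, P/Q, N and R) serve gene regulation and transmitter release, and the low-voltage T-type supports burst firing. HCN channels open on hyperpolarization and shape the resting potential and dendritic integration of hippocampal pyramidal cells, while Nalcn carries a steady sodium leak. Firing properties of pyramidal neurons are known to differ along the dorsoventral axis of the hippocampus.

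The study compared mice lacking Tet3, a dioxygenase that oxidizes methylated cytosine, in adult forebrain neurons with controls, in the dorsal and in the ventral hippocampus. The cKO mice were Tet3 fl/fl; Camk2a-CreERT2, that is homozygous for a floxed Tet3 allele and carrying a tamoxifen-inducible Cre recombinase driven by the mouse Camk2a promoter, and the controls were Tet3 fl/fl without Cre. The floxed line was on C57BL/6N and the Cre line came from B6;129S6. The treatment text, which is the same for cKO and control samples, gives intraperitoneal tamoxifen at 50 mg/kg from 6 weeks of age, 2 injections a day for 5 days, a break of 7 days, then 5 more days, and all samples are labelled adult. Camk2a drives Cre in excitatory forebrain neurons, so interneurons and glia of the cKO mice keep the allele, and whole macrodissected tissue was sequenced. There were 12 samples in 4 groups of 3: dorsal control (41, 49 and 71), dorsal cKO (40, 43 and 64), ventral control (41, 49 and 50) and ventral cKO (40, 63 and 64), the numbers being those of the sample titles. Nothing in the labels states that these are animal numbers, so p-values measure the spread between these samples.

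Each read was a tag from the 3′ end of a polyadenylated transcript, and a level is given as CPM, the gene's tags scaled to a fixed total per sample, which for such tags is not divided by transcript length. Totals ran from 5.12 to 15.9 M tags per sample (median 9.07 M). All 8 dentate granule, 6 CA1 and 8 CA2 and CA3 markers were detected in every sample. Choroid plexus markers summed to 265 to 457 CPM in 4 dorsal samples, and to 5014 in dorsal control 49 and 3172 in dorsal cKO 64. They summed to 3307 to 4632 CPM in the ventral controls, but to 209, 2578 and 174 CPM in ventral cKO 40, 63 and 64. Tet3 tags stood at 33.3 ± 4.25 CPM in the dorsal controls and 38.7 ± 5.39 in the dorsal cKO samples, and at 29.7 ± 5.52 and 30.4 ± 5.0 CPM in the ventral ones (SD, n = 3 each). The labels do not give the floxed stretch, and a 3′ tag outside it does not check the deletion.

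The channel genes together took 2707 to 3078 CPM in the dorsal samples and 2754 to 2922 CPM in the ventral samples, ranges that overlap. Of the 35 genes, 24 were at 10 CPM or more in every sample and 9 at 100 CPM or more. A further 3 members were hardly seen: Scn10a and Scn11a, pore subunits of sensory neurons, and Cacna1f, the retinal L-type subunit, had at most 4, 4 and 8 tags in any sample and stayed under 1 CPM in all 4 group means. A count of 0, reached by each of them in at least 1 sample, allows up to 0.281 to 0.586 CPM in the samples where it occurred (3 tags of the sample's total, counting error only). These 3 fell below the filter on low counts and were not tested. The other 32 were tested in the comparison of regions and in the dorsal genotype comparison, and 31 in the ventral one, where Cacna2d4 was too low.

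The sodium and calcium channel genes included members that passed in the comparison of regions, while Hcn2, Hcn3 and Hcn4 did not pass. Log2 fold changes of the HCN genes ran from -0.35 to 0.43 (median SE 0.16), so not passing does not show equal levels. Of 32 members, 12 differed between ventral and dorsal hippocampus (edgeR quasi-likelihood test over all 12 samples, Benjamini-Hochberg adjusted p under 0.05), 6 higher and 6 lower in the ventral samples. Over all 16414 genes tested, 14.1% passed the same threshold, 6.67% higher and 7.43% lower in ventral tissue. An unadjusted p under 0.05 was reached by 21 of the 32 members and 26.7% of all genes. Of the sodium channel pore genes that passed, Scn1a was lower and Scn3a higher in ventral tissue. The sodium channel beta subunit genes that passed, Scn4b and Scn3b among them, were lower. The calcium channel pore genes that passed (Cacna1g, Cacna1b, Cacna1e and Cacna1c) were all higher. Of the auxiliary calcium channel genes that passed, Cacnb3 was higher, and Cacnb4 and Cacna2d4 were lower. Scn4b had the largest change, 4.09-fold lower in ventral samples. The median log2 difference was 0.15 over the 32 members and 0.0 over all genes, with 21 members above and 11 below 0. For 8 of the 32 every dorsal sample lay on the same side of every ventral sample, against 7.44% of all genes. In whole tissue, fewer cells of a type and less RNA per cell cannot be told apart.

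**Figure D1:**
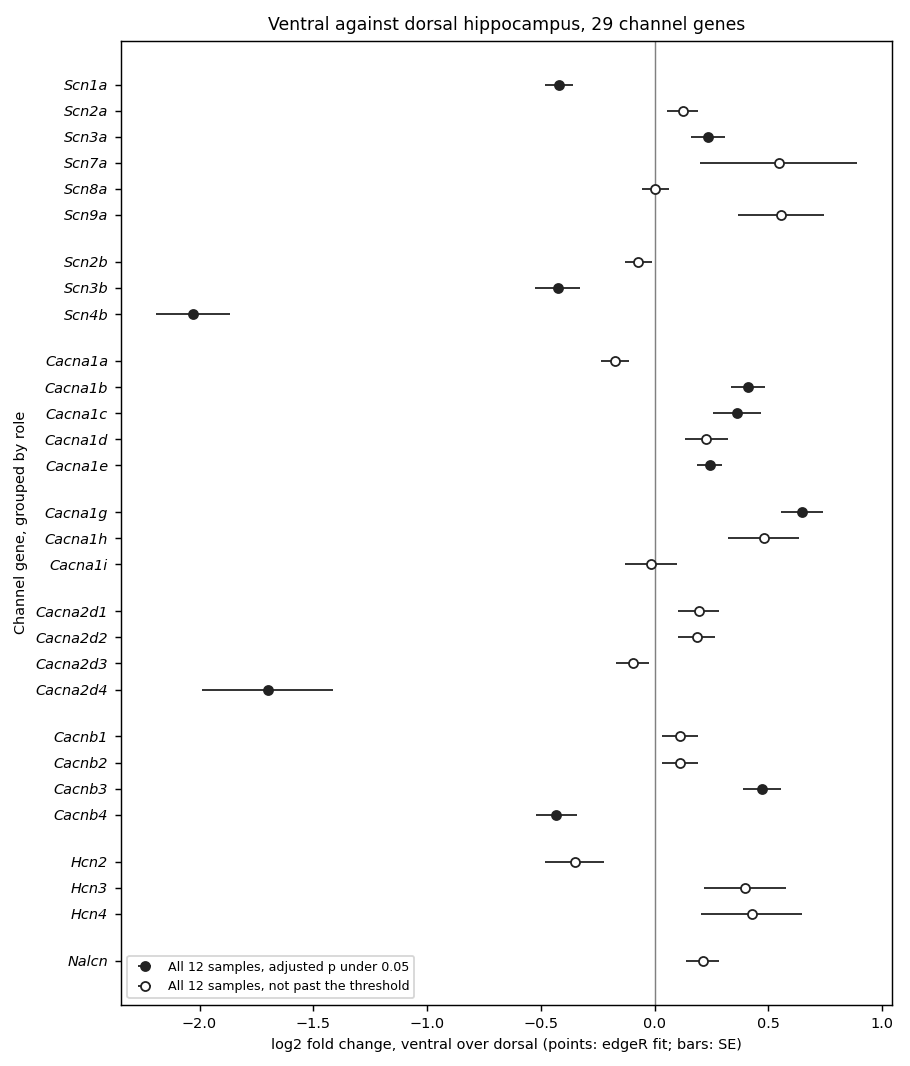
The log2 fold change of ventral over dorsal hippocampus (x axis) for 29 tested channel genes (y axis, grouped by role), from all 12 samples, with the standard error as bars and filled points for the 11 of them past an adjusted p of 0.05. Scn4b at -2.03 and Cacna2d4 at -1.70 stand far to the left, and the other 27 genes lie between -0.43 and 0.65.

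The sodium channel beta subunit genes Scn4b and Scn3b were lower in ventral tissue, and Scn2b did not pass. Scn4b encodes the beta subunit known for its part in resurgent sodium current, and lies at chr9:45138395-45154152 on the plus strand (GRCm38, GENCODE M21). In dorsal controls 41, 49 and 71 its level was 30.4, 25.3 and 28.7 CPM, and in dorsal cKO 40, 43 and 64 it was 30.1, 24.3 and 33.8 CPM. In the ventral samples it was 6.60, 4.10 and 7.17 CPM in controls 41, 49 and 50 and 4.78, 8.71 and 10.9 CPM in cKO 40, 63 and 64. The lowest dorsal sample was thus above the highest ventral one in both genotypes. This gave a log2 fold change of -2.03 ± 0.16 (SE, adjusted p = 1.56e-07). Scn4b made up 3.93 to 5.57% of the summed tags of Scn2b, Scn3b and Scn4b in dorsal samples and 0.851 to 2.001% in ventral samples.

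Scn3b, whose product pairs with several pore subunits of the brain and aids their surface expression (chr9:40269217-40291618, plus strand), was at 100, 80.7 and 68.6 CPM in the dorsal controls and 77.7, 91.7 and 75.4 CPM in dorsal cKO samples. The ventral samples had 70.8, 63.1 and 63.2 CPM in controls and 67.3, 53.5 and 48.4 CPM in cKO. Only dorsal control 71 and ventral control 41 crossed, and the log2 fold change was -0.43 ± 0.10 (SE, adjusted p = 0.00768). Scn2b, the beta subunit that binds the pore through a disulfide bond, was the most abundant of these 3, at 430 to 501 CPM dorsally and 414 to 486 CPM ventrally, and did not pass (-0.07 ± 0.06, SE).

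Among the sodium channel pore subunits, 2 of the 7 tested members passed, in opposite directions, against 14.1% of all genes. Scn1a, the pore subunit on which fast-spiking interneurons depend most, was lower in ventral tissue. It stood at 148, 138 and 124 CPM in the dorsal controls and at 161, 161 and 162 CPM in dorsal cKO samples, whose SD was 0.466 CPM. The ventral controls had 108, 101 and 109 CPM and the ventral cKO samples 120, 105 and 121 CPM. No ventral sample reached a dorsal one, the nearest being dorsal control 71 and ventral cKO 64. On the log2 scale the difference was -0.42 ± 0.06 (SE, adjusted p = 0.0001). Scn1a gave 17.3 to 21.5% of the summed tags of Scn1a, Scn2a, Scn3a and Scn8a in dorsal and 13.4 to 16.2% in ventral samples.

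Scn3a, the pore subunit known as the embryonic form, was the weakest of the 12 calls, at 47.2 to 62.3 CPM in the dorsal and 54.9 to 69.7 CPM in the ventral samples. Its log2 fold change was 0.23 ± 0.07 (SE, adjusted p = 0.044), and the ranges overlapped. Leaving out any of dorsal control 41, 49 or 71, dorsal cKO 40 or 43, ventral control 49 or ventral cKO 40 or 64 ended the call (log2 fold change 0.19 to 0.25, adjusted p 0.0548 to 0.121). Scaling by library size alone (adjusted p = 0.0548) and the fixed block by sample number (adjusted p = 0.102) ended it too. In that block the difference between regions rests only on 40, 41, 49 and 64, the numbers found in both regions. The main pore subunits of excitatory neurons did not pass: Scn2a of the proximal initial segment was at 185 to 236 CPM and Scn8a of the distal segment and nodes at 315 to 382 CPM over all 12 samples. Their log2 fold changes were 0.12 ± 0.07 and 0.00 ± 0.06 (SE). Scn7a, a sodium-sensing channel of glia and neurons, and Scn9a, best known from sensory neurons, were at 0.749 to 5.04 CPM in every sample and did not pass. For Scn9a the log2 fold change was 0.467 to 0.703 over 25 alternatives, and it passed in 2 of them. These were leaving out ventral cKO 64 (0.644, adjusted p = 0.0355) and entering runs as separate libraries (0.547, adjusted p = 0.0282).

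The genomic windows just before the start sites of Cacna1b and Scn1a are shown because they are the members with the lowest p in the ventral and the dorsal direction that have 1 RefSeq start site and a window lying at most 30 bases inside an annotated UTR. Each is the 250 bases up to the start, read 5′ to 3′ on the gene's strand, from RefSeq on GRCm38.p6, with CpG pairs, the sites of DNA methylation, in capitals. The Scn1a window is chr2:66440838-66441087 and the Cacna1b window chr2:24763153-24763402, both on the minus strand.
Scn1a: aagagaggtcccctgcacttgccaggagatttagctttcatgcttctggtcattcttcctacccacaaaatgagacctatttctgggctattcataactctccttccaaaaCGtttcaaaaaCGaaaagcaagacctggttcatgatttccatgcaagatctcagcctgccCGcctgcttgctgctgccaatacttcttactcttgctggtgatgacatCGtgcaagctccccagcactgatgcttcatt
Cacna1b: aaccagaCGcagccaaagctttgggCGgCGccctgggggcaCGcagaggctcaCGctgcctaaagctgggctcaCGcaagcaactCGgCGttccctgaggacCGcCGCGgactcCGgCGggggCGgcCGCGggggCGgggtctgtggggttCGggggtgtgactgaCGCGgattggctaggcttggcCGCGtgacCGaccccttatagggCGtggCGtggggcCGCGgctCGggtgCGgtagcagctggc
The Scn1a window holds 4 CpG pairs and the Cacna1b window 29. All 32851 such windows in the RefSeq table had a median of 6 (quartiles 2 and 16). For the channel genes, 25 members matched with 35 windows, among them 7 of the 12 that passed, and the windows ranged from 1 to 50 CpG pairs with a median of 9. Of 5 motifs searched on both strands, CCAAT (33.8% of all windows) was found in both sequences, and GGGCGG (32.7% of all windows) in Cacna1b alone of the pair. TATAAA (12.4% of all), TGACGTCA (1.55%) and CACGTG (6.02%) were in neither. Over the 35 member windows GGGCGG was in 14, CCAAT in 8 and TATAAA in 2. These are descriptions of letters, and no methylation was measured in these files.

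Of the 5 high-voltage calcium channel pore genes tested, 3 passed, all higher in ventral tissue, against 6.67% of all genes higher. Within the controls alone 2 of the 5 passed, both higher, against 3.48% of all genes higher. Within the cKO samples 0 passed, against 2.83% of all genes higher. Cacna1b encodes the N-type pore of presynaptic terminals (chr2:24603887-24763152, minus strand). It was at 67.8, 58.0 and 61.2 CPM in the dorsal controls and 74.5, 66.6 and 76.6 CPM in dorsal cKO samples. The ventral controls had 81.3, 107 and 85.2 CPM and the ventral cKO samples 86.1, 88.9 and 86.4 CPM. All 6 ventral samples were above all 6 dorsal ones, with ventral control 49 the highest. On the log2 scale the difference was 0.41 ± 0.07 (SE, adjusted p = 0.000828). Cacna1a, the P/Q-type pore that shares the presynaptic role, was at 226 to 278 CPM dorsally and 216 to 234 CPM ventrally and did not pass (-0.17 ± 0.06, SE, adjusted p = 0.0748). Cacna1b therefore took 19.3 to 24.8% of the tags of this presynaptic pair in dorsal and 26.5 to 31.5% in ventral samples, ranges that do not overlap.

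Cacna1e, the R-type pore found in dendrites and spines (chr1:154390731-154884501, minus strand), was at 111 to 126 CPM in the 6 dorsal and 133 to 156 CPM in the 6 ventral samples, again without overlap. Its log2 fold change was 0.24 ± 0.06 (SE, adjusted p = 0.0064), and with the sample number as a fixed block the call was lost (0.20, adjusted p = 0.149). Cacna1c, the main L-type pore of the brain and a link from activity to transcription (chr6:118587240-119196418, minus strand), was at 37.2, 30.2 and 35.6 CPM in dorsal controls and 28.8, 40.9 and 43.6 CPM in dorsal cKO samples. The ventral controls had 47.0, 47.7 and 42.5 CPM and the ventral cKO samples 52.6, 46.3 and 38.1 CPM. The regions overlapped through dorsal cKO 64 and ventral cKO 64. The log2 fold change was 0.36 ± 0.11 (SE, adjusted p = 0.0294). This call was lost without dorsal control 49, dorsal cKO 40, ventral control 41 or 49, or ventral cKO 40 or 63 (0.27 to 0.36, adjusted p 0.0519 to 0.0802), and with the fixed block (adjusted p = 0.0823). Cacna1d, the other L-type pore of neurons, was at 30.7 to 41.4 CPM dorsally and 36.0 to 48.2 CPM ventrally and did not pass (0.23 ± 0.09, SE, adjusted p = 0.125).

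**Figure D2:**
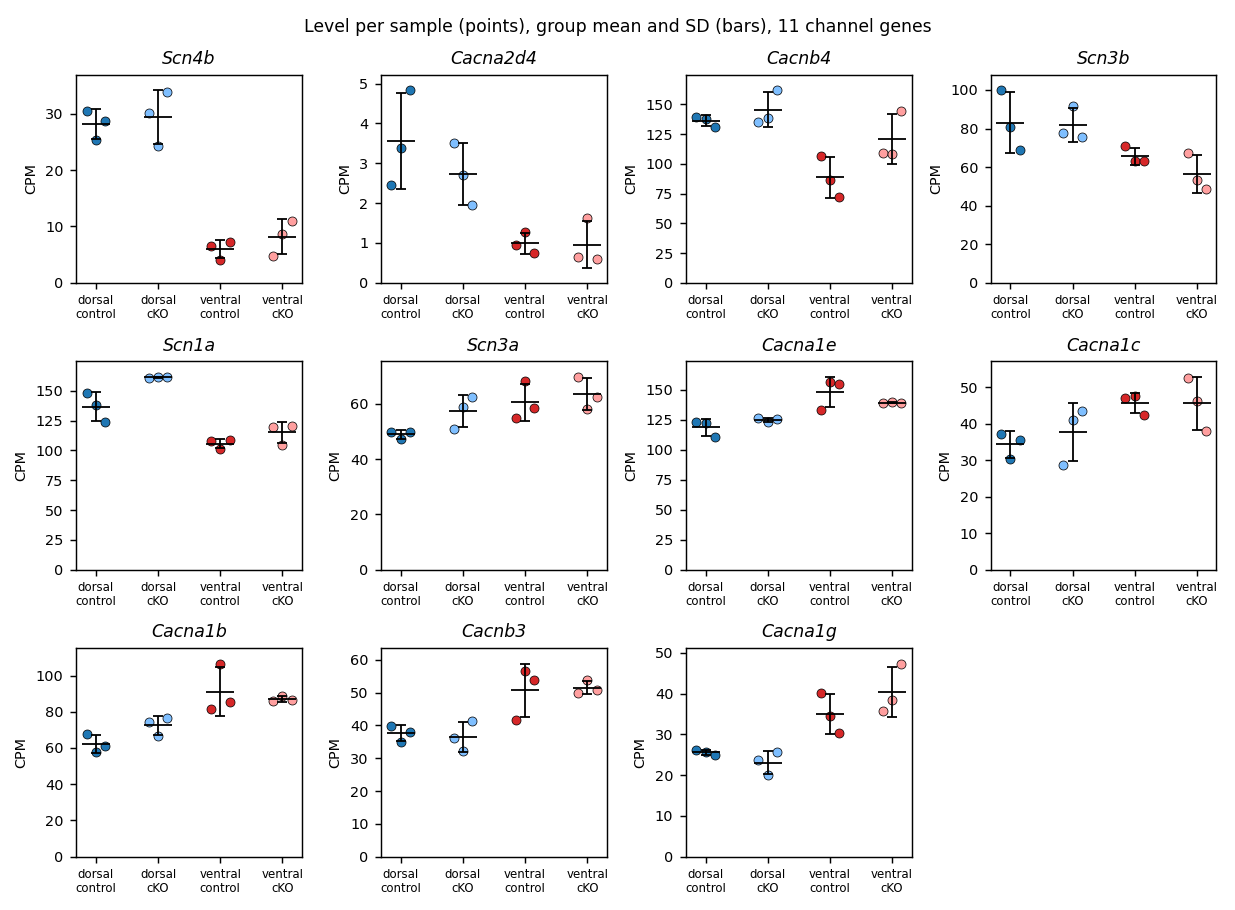
CPM per sample (y axis, starting at 0) in the 4 groups (x axis) for 11 channel genes that differed between regions, with the group mean and SD as bars. Scn4b falls from 24.3 to 33.8 CPM in dorsal samples to 4.10 to 10.9 CPM in ventral ones, while Cacna1b, Cacna1e, Cacnb3 and Cacna1g sit higher in every ventral sample than in any dorsal one.

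Cacna1g was the member with the largest increase toward ventral tissue. It encodes a T-type pore, known for burst firing in thalamus and for low-threshold spikes (chr11:94408391-94474198, minus strand). Its level was 26.1, 25.7 and 24.96 CPM in the dorsal controls and 23.7, 19.95 and 25.6 CPM in dorsal cKO samples. The ventral controls had 40.2, 34.6 and 30.3 CPM and the ventral cKO samples 35.7, 38.4 and 47.4 CPM, so no sample of one region reached the other. The log2 fold change was 0.65 ± 0.09 (SE, adjusted p = 0.000109), which is 1.57-fold. The other T-type pores did not pass: Cacna1h was at 6.14 to 11.3 CPM dorsally and 9.86 to 13.9 CPM ventrally (0.48 ± 0.16, SE, adjusted p = 0.0509), and Cacna1i at 14.2 to 20.5 CPM over all samples. Cacna1h lay at the threshold and passed under 8 of 26 alternatives, DESeq2 (adjusted p = 0.0382) among them. The 3 T-type genes together made 41.03 to 56.5 CPM in dorsal and 57.4 to 77.7 CPM in ventral samples.

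Auxiliary subunits of calcium channels moved in both directions. Cacnb3 encodes a beta subunit that brings pores to the membrane and is common on N-type channels (chr15:98630840-98644529, plus strand). It was at 39.8, 34.9 and 38.1 CPM in the dorsal controls and 36.2, 32.1 and 41.2 CPM in dorsal cKO samples. Ventral controls had 41.6, 56.8 and 54.0 CPM and ventral cKO samples 49.9, 53.9 and 50.8 CPM. The ranges did not overlap, though ventral control 41 lay close to dorsal cKO 64, and the log2 fold change was 0.47 ± 0.09 (SE, adjusted p = 0.000919).

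Cacnb4, the beta subunit mutated in the lethargic mouse (chr2:52428320-52676831, minus strand), was lower in ventral tissue. It stood at 140, 138 and 131 CPM in dorsal controls, 135, 139 and 162 CPM in dorsal cKO samples, 107, 86.7 and 72.4 CPM in ventral controls and 109, 109 and 145 CPM in ventral cKO samples. Only ventral cKO 64 entered the dorsal range. Cacnb4 had a log2 fold change of -0.43 ± 0.09 (SE, adjusted p = 0.00327). Of the summed tags of the 4 calcium beta genes, Cacnb4 gave 46.3 to 53.8% in dorsal and 30.5 to 47.5% in ventral samples, and Cacnb3 gave 11.7 to 14.1% and 15.6 to 22.8%. Cacnb1, at 39.5 to 55.2 CPM over all samples, and Cacnb2, at 54.5 to 72.7 CPM, did not pass.

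Among the alpha2delta genes, whose products raise channel density at the membrane, Cacna2d4 alone passed. It is the retinal form and was rare here, with 4 to 45 tags per sample (chr6:119236526-119352407, plus strand). Its level was 2.45, 3.39 and 4.84 CPM in dorsal controls and 3.51, 2.72 and 1.95 CPM in dorsal cKO samples, against 0.943, 1.27 and 0.755 CPM in ventral controls and 0.651, 1.63 and 0.598 CPM in ventral cKO samples. The ranges did not overlap, and the log2 fold change was -1.70 ± 0.29 (SE, adjusted p = 0.000508). The abundant forms did not pass: Cacna2d1, the gabapentin-binding form, was at 116 to 186 CPM over all samples, Cacna2d2, also a target of gabapentin, at 41.1 to 58.0 CPM and Cacna2d3 at 57.1 to 77.2 CPM.

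Hcn2, Hcn3, Hcn4 and the leak channel did not pass in the comparison of regions, and their values are given although the rule for naming genes does not call for them. Hcn2, a slower form also common in thalamus, was at 17.3 to 30.7 CPM dorsally and 14.2 to 21.4 CPM ventrally (-0.35 ± 0.13, SE, adjusted p = 0.0873). Without dorsal cKO 40 it passed (-0.47, adjusted p = 0.00982). Hcn3 and Hcn4, the latter the pacemaker form of the heart, were at 1.17 to 5.68 CPM in every sample. Over 25 alternatives the log2 fold change was 0.308 to 0.523 for Hcn3 and 0.047 to 0.57 for Hcn4, and neither passed in any. Nalcn was at 60.7 to 80.1 CPM dorsally and 71.5 to 87.5 CPM ventrally (0.21 ± 0.07, SE, adjusted p = 0.0656), and passed without dorsal cKO 43 (0.27, adjusted p = 0.0158) or without ventral control 50 (0.25, adjusted p = 0.0337). Over the 20 members that did not pass, the standard error was 0.0582 to 0.344, with the widest errors at the rarest genes.

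Genes that act with these channels were counted from a list of 29 interactors, of which 28 were found and 25 tested. In the comparison of regions 10 passed, 2 higher and 8 lower in ventral tissue, against 14.1% of all genes (6.67% higher and 7.43% lower). Cacng5, of the gamma subunit family whose members also assist AMPA receptors, was at 15.04 to 20.4 CPM in the dorsal and 6.62 to 7.77 CPM in the ventral samples (-1.24 ± 0.10, SE, adjusted p = 2.79e-07). Nfasc, neurofascin, which anchors sodium channels at initial segments and has a glial form at the node, was at 186 to 215 CPM dorsally and 132 to 163 CPM ventrally (-0.43 ± 0.06, SE, adjusted p = 6.55e-05). Stac2, an adaptor of L-type channels, was at 22.5 to 28.6 CPM dorsally and 12.9 to 20.1 CPM ventrally (-0.68 ± 0.10, SE, adjusted p = 8.36e-05). Fgf11, a fibroblast growth factor homologous factor that binds sodium channels from inside the cell, was higher in ventral tissue, at 11.1 to 14.1 CPM against 15.7 to 19.8 CPM (0.56 ± 0.10, SE, adjusted p = 0.000757). These 4 genes were picked by lowest p in this comparison, and none of them overlapped between regions. Of all 25 tested interactors 6 did not overlap, against 7.44% of all genes.

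Cell type markers moved with region as well, and their counts stand beside the 14.1% of all genes that passed. All 6 oligodendrocyte markers were lower in ventral samples, with summed levels of 7309 to 8831 CPM dorsally and 2581 to 3438 CPM ventrally. Of 9 tested thalamus markers 4 were lower and 1 higher, with sums of 309 to 404 CPM and 268 to 356 CPM. Prkcd of that list fell from 32.2 to 16.1 CPM on average (-1.0 ± 0.14 on the log2 scale, SE, adjusted p = 5.8e-05). Ntng1 of the same list went the other way, from 51.6 to 106.7 CPM on average. Of 6 CA1 markers 2 were higher and 3 lower in ventral tissue (log2 fold changes of the list -0.90 to 0.81), with sums of 850 to 1077 CPM dorsally and 957 to 1209 CPM ventrally. Of 8 CA2 and CA3 markers 1 was higher and 3 were lower (-1.52 to 0.39), with sums of 387 to 466 CPM and 303 to 473 CPM. Of 8 dentate granule markers 1 was higher and 2 were lower (lowest -2.01, median 0.004), with sums of 281 to 333 CPM and 249 to 392 CPM. Calb1 of this list rose from 50.5 CPM in dorsal to 104.5 CPM in ventral samples on average. The sums of all 3 lists overlapped between the regions. Of 10 interneuron markers Pvalb was lower (-0.46 ± 0.09, SE, adjusted p = 0.00219) and Kcnc2, itself a channel gene, higher (0.24 ± 0.08, SE, adjusted p = 0.0454), while their sum was 855 to 1011 CPM dorsally and 833 to 1025 CPM ventrally. The 6 pan-neuronal markers summed to 4605 to 5073 CPM dorsally and 5115 to 5902 CPM ventrally. The part of these shifts in the channel differences was not tested. Without the pair of ventral samples with low choroid plexus levels, Scn4b, Scn1a, Cacna1g, Cacna2d4, Cacna1b, Cacnb3, Cacnb4 and Scn3b passed as before, while Cacna1e (0.25, adjusted p = 0.0544), Cacna1c (0.37, adjusted p = 0.0836) and Scn3a (0.18, adjusted p = 0.303) were among those that did not. Without the pair of dorsal samples with high choroid plexus levels, Cacna1c (0.35, adjusted p = 0.0575) and Scn3a (0.23, adjusted p = 0.106) did not pass.

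**Figure D3:**
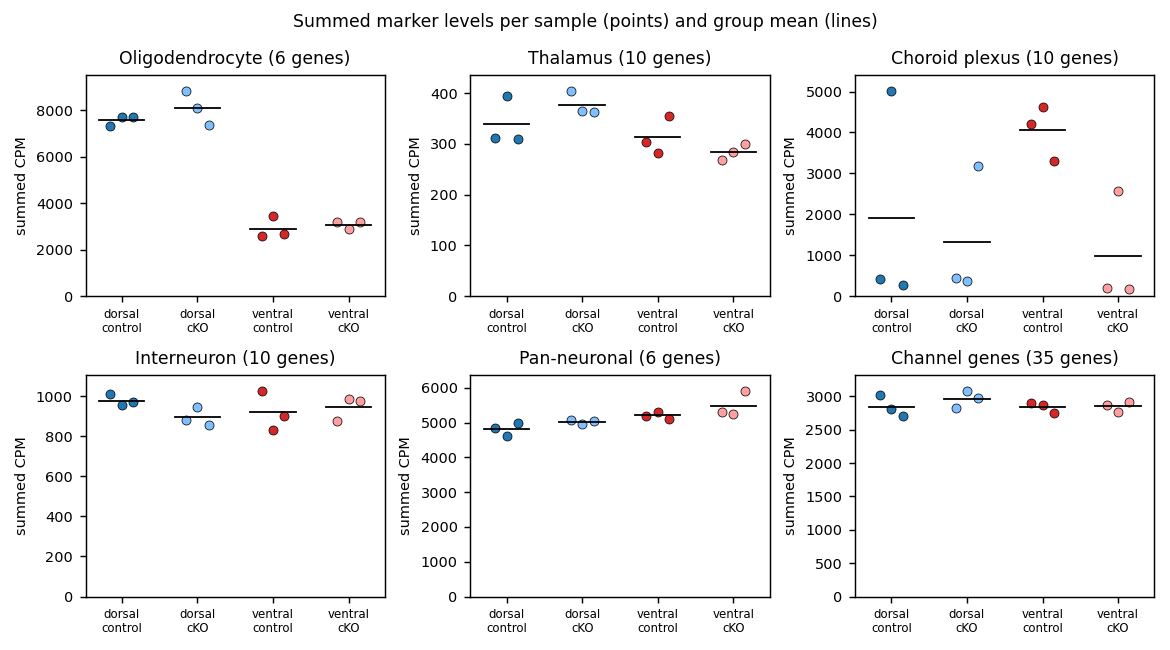
Summed CPM (y axis, starting at 0) of 5 cell type marker lists and of the 35 channel genes in each sample of the 4 groups (x axis), with group means as lines. Oligodendrocyte markers are at 7309 to 8831 CPM in dorsal and 2581 to 3438 CPM in ventral samples, whereas the summed channel genes overlap.

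Within the controls alone, 7 of 32 members differed between regions, 3 higher and 4 lower in ventral tissue, where 7.86% of all genes passed (3.48% higher and 4.38% lower). Within the cKO samples 5 of 32 did, 2 higher and 3 lower, where 6.16% of all genes passed (2.83% higher and 3.33% lower). Scn4b passed in both (-2.23 ± 0.23 in controls, -1.83 ± 0.23 in cKO, SE), as did Scn1a (-0.39 ± 0.09 and -0.45 ± 0.09), Cacna2d4 (-1.88 ± 0.39 and -1.52 ± 0.42) and Cacna1g (0.44 ± 0.13 and 0.86 ± 0.13). Cacna1b, Cacna1e and Cacnb4 passed in the controls only and Cacnb3 in the cKO samples only, and no test of a difference between the genotypes passed for them. Scn4b kept its call in both genotypes under all 26 alternatives. Cacna1g in controls had an adjusted p of 0.0475 and lost its call in 14 of 26 alternatives. These included leaving out dorsal control 41, 49 or 71, ventral control 41 or 49, dorsal cKO 40 or 64, or ventral cKO 63 (0.30 to 0.47, adjusted p 0.0556 to 0.217). Cacna1e in controls lost it without dorsal control 49 or 71 or ventral control 49 or 50 (0.25 to 0.29, adjusted p 0.0778 to 0.119). Cacna2d4 in cKO lost it without dorsal cKO 40 or 43 or ventral cKO 40 or 64 (-1.54 to -1.27, adjusted p 0.0869 to 0.158). Cacnb3 in cKO lost it without dorsal cKO 43 (0.47, adjusted p = 0.0656) or ventral cKO 63 (0.51, adjusted p = 0.0515), and Scn1a in controls without dorsal control 41 (-0.32, adjusted p = 0.0565). With run 1 only, Scn1a in controls (-0.16, adjusted p = 0.574) and Cacna1g in cKO (0.74, adjusted p = 0.0506) were among the calls lost. With run 3 only, Cacna2d4 in cKO was among them (-1.07, adjusted p = 0.277). With the fixed block by sample number, Cacna1g, Cacna2d4, Cacna1b and Cacna1e in controls (adjusted p 0.0545 to 0.383) and Scn1a and Cacnb3 in cKO samples (0.0747 and 0.214) did not pass.

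**Figure D4:**
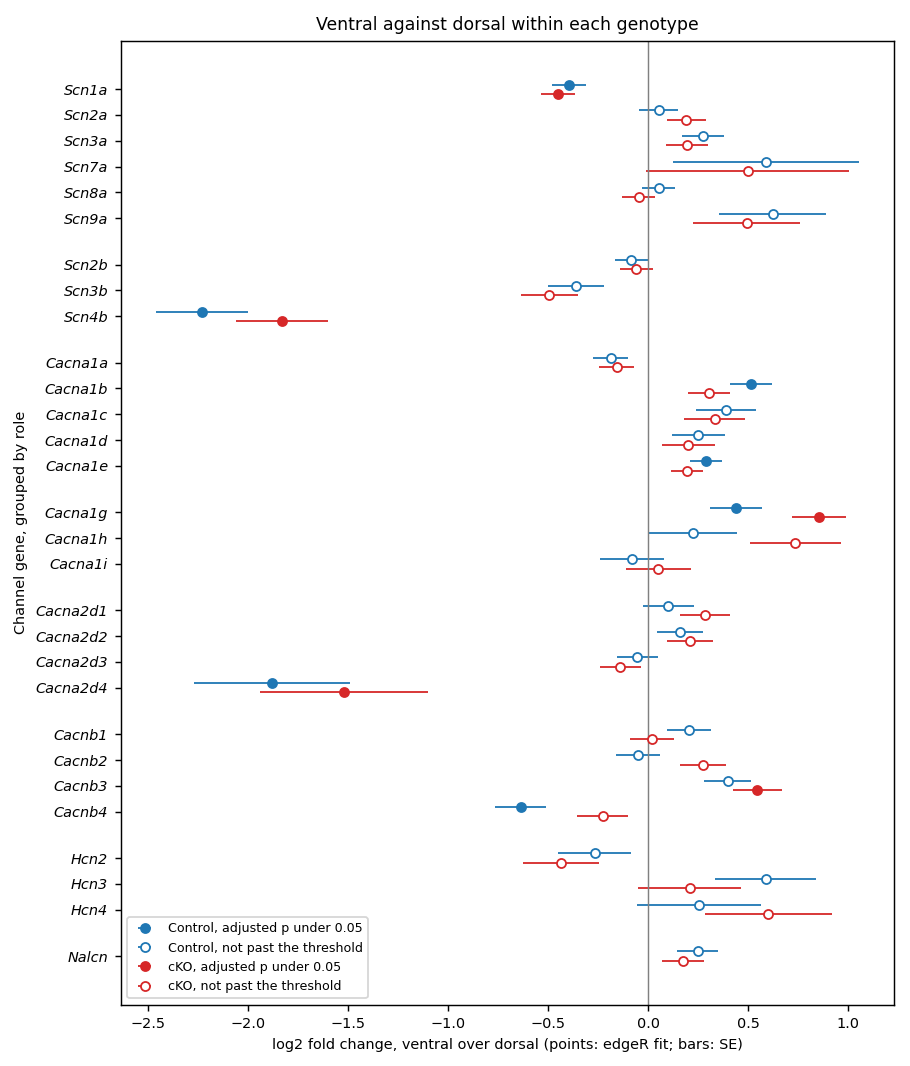
The log2 fold change of ventral over dorsal (x axis) for 29 tested channel genes (y axis), in controls and in cKO samples separately, with standard errors as bars and filled points past an adjusted p of 0.05. Scn4b, Scn1a, Cacna2d4 and Cacna1g are filled in both genotypes, and Cacnb4 lies at -0.64 in controls and -0.23 in cKO samples.

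The comparison of genotypes asked whether loss of Tet3 in excitatory neurons changed these genes. No channel gene passed in either region by edgeR's quasi-likelihood test, DESeq2 or limma-voom. In the dorsal hippocampus 0 of 32 members passed, as did 0.0% of all genes, and 2 members had an unadjusted p under 0.05 (4.9% of all genes). The median log2 fold change of cKO over control was 0.01 over the members and 0.00 over all genes, and members ranged from -0.36 to 0.35. In the ventral hippocampus 0 of 31 passed, as did 0.0% of all genes, and 1 had an unadjusted p under 0.05 (7.23% of all genes). There the median was 0.04, with a range from -0.30 to 0.46. Over all genes DESeq2 called 22 in the dorsal and 9 in the ventral comparison and limma-voom called 0 in both.

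In the dorsal samples the member with the lowest p was Scn1a. The 3 cKO samples at 161 to 162 CPM lay above the controls at 124 to 148 CPM, with a log2 fold change of 0.20 ± 0.08 (SE, unadjusted p = 0.0293, adjusted p = 0.968). Cacnb2, the beta subunit best known from the heart, was at 58.5, 55.4 and 54.5 CPM in the cKO samples and 72.4, 60.7 and 61.2 CPM in the controls (-0.24 ± 0.10, SE, unadjusted p = 0.031, adjusted p = 0.968). These groups did not overlap, as held for 4 of 32 members and 11.4% of all genes. Scn3a (0.19 ± 0.10, SE) and Cacna1b (0.18 ± 0.10, SE) came next, at unadjusted p = 0.0811 and 0.0849, and Cacna1b overlapped between the groups while Scn3a did not. Of the interactors, Fgf14, another fibroblast growth factor homologous factor, was at 12.3, 11.99 and 10.8 CPM in cKO and 11.8, 15.3 and 17.8 CPM in controls (-0.38 ± 0.17, SE, unadjusted p = 0.0422, adjusted p = 0.968). Fgf12, of the same family, was at 40.8 to 46.1 CPM in cKO and 35.7 to 39.5 CPM in controls (0.16 ± 0.10, SE, unadjusted p = 0.116). In the same samples, 4 of 10 interneuron markers, all with negative fold changes, and 5 of 8 CA2 and CA3 markers, 4 of them positive, had an unadjusted p under 0.05 (4.9% of all genes), and none passed after adjustment. The interneuron markers summed to 956 to 1011 CPM in the controls and 855 to 945 CPM in cKO, and the CA2 and CA3 markers to 387 to 427 CPM and 407 to 466 CPM. Their part in the channel values was not tested.

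In the ventral samples Cacnb4 had the lowest p of the channel genes. The cKO samples were at 109, 109 and 145 CPM and the controls at 107, 86.7 and 72.4 CPM, so the groups did not overlap, but ventral control 41 lay just under ventral cKO 40 and 63. Its log2 fold change was 0.46 ± 0.15 (SE, unadjusted p = 0.0101, adjusted p = 0.608). In the authors' deposited table, in which runs of a sample enter as separate libraries, Cacnb4 has a log2 fold change of 0.42 and a false discovery rate of 0.0406. That table nevertheless marks the gene as having no change. It is the 1 of 35 members under 0.05 there, where 1.86% of all genes are, and no member of 35 is under it in the authors' deposited values for the dorsal samples, against 0.564% of genes. With runs entered as separate libraries here, Cacnb4 passed as well (adjusted p = 0.0223), among 399 of 12312 genes, in place of 0 with runs summed. Runs of 1 sample are not independent samples, so neither fit by runs measures the spread between samples. Of the choroid plexus markers in these samples, 7 of 9 had an unadjusted p under 0.05 (7.23% of all genes) and all 9 had negative fold changes, and their part in the Cacnb4 difference was not tested. Cacnb4 stood at 107, 86.7 and 72.4 CPM in ventral controls 41, 49 and 50, where the choroid plexus sum was 4215, 4632 and 3307 CPM. In ventral cKO 40, 63 and 64 it stood at 109, 109 and 145 CPM, beside sums of 209, 2578 and 174 CPM.

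Scn1a (0.15 ± 0.09, SE) and Cacna1g (0.22 ± 0.14, SE) followed among the ventral channel genes, with unadjusted p of 0.136 and 0.147, and both overlapped between the groups. The groups of 3 of 31 members did not overlap, against 13.1% of all genes. Of the interactors, Cacng2, stargazin, which traffics AMPA receptors, was at 146, 193 and 166 CPM in cKO and 152, 117 and 107 CPM in controls (0.44 ± 0.14, SE, unadjusted p = 0.00849, adjusted p = 0.608). Stac2 was at 13.0, 12.9 and 13.8 CPM in cKO and 20.1, 15.5 and 20.01 CPM in controls (-0.47 ± 0.15, SE, unadjusted p = 0.00865, adjusted p = 0.608). Neither passed the threshold. Over the members the standard error of a genotype effect had a median of 0.107 in the dorsal and 0.127 in the ventral comparison.

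**Figure D5:**
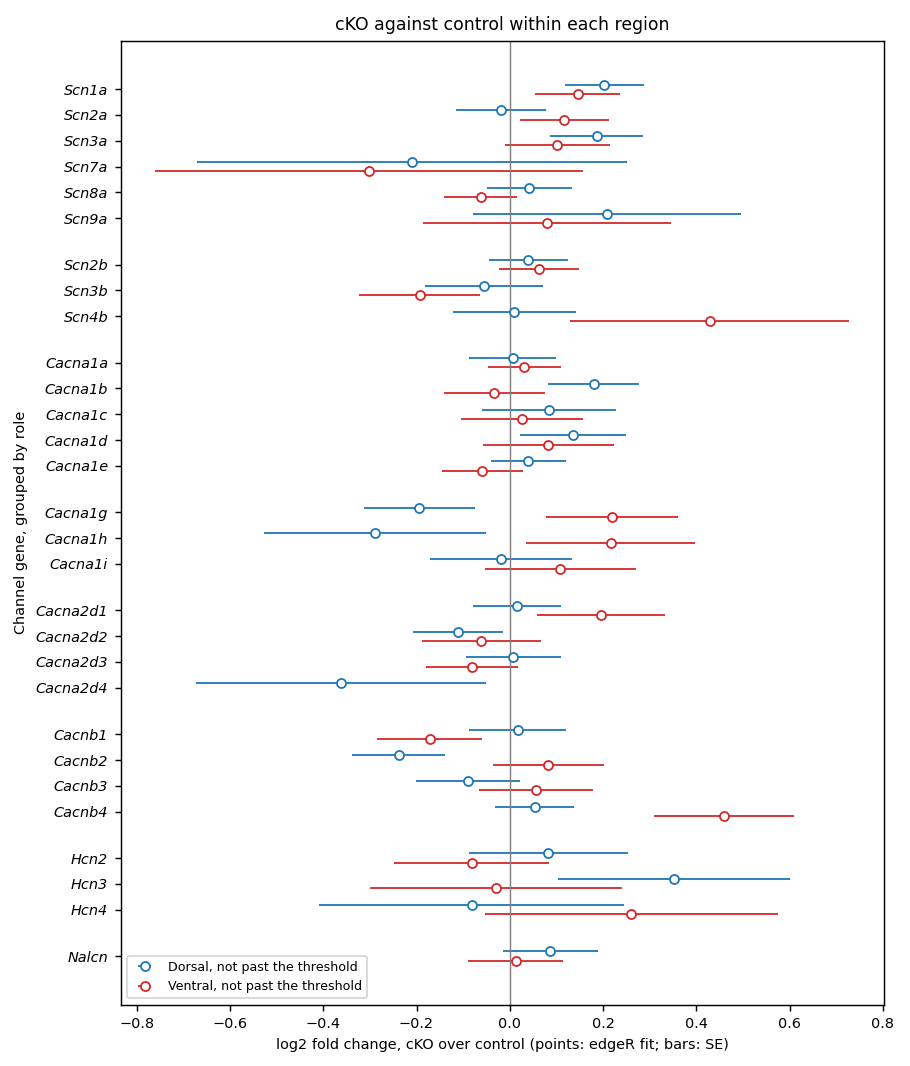
The log2 fold change of cKO over control (x axis) in the dorsal and in the ventral hippocampus for 29 tested channel genes (y axis, grouped by role), with standard errors as bars. All points are open, since none passed an adjusted p of 0.05, and Cacnb4 in the ventral samples lies farthest from 0 at 0.46, while Cacna2d4 has a dorsal point only.

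Whether the genotype effect differed between regions was tested by the interaction in the fit of all 12 samples, which shares its samples with the comparisons above. No member of 32 passed, as did 0.0% of all 16414 genes, and 2 members had an unadjusted p under 0.05 (7.96% of all genes). Limma-voom called 0 genes and DESeq2 34, none of them a channel gene. Cacnb4 had the lowest p, with the ventral effect 0.41 ± 0.18 above the dorsal one (SE, unadjusted p = 0.0376, adjusted p = 0.613). Cacna1g followed at 0.42 ± 0.19 (SE, unadjusted p = 0.0401), being lower in dorsal cKO (-0.19 ± 0.12) and higher in ventral cKO samples (0.22 ± 0.14) than in their controls, neither past the threshold. Cacnb2 came next at 0.33 ± 0.16 (SE, unadjusted p = 0.0568). Cacnb4, lower in ventral than in dorsal controls (-0.64 ± 0.13, SE, adjusted p = 0.00429), was therefore not shown to differ in this from the cKO samples (-0.23 ± 0.13, SE, adjusted p = 0.354).

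The annotation limits some of these genes. The labels do not state whether counting used strand, so tags of overlapping genes on opposite strands cannot be told apart. At its 3′ end, where the tags arise, Cacnb4 meets A430018G15Rik. The same holds for Scn2b with Gm10684, Cacna1d with Chdh, Hcn3 with Pklr and Scn9a with Gm13629. Away from their 3′ ends, Cacna2d4 encloses Lrtm2, and Scn1a, Scn3a, Scn3b and Cacna1c overlap Gm13630, Gm13595, Gm47266 and Dcp1b. Cacnb2 overlaps 13 counted genes, none at its 3′ end. Scn4b, Cacna1b, Cacna1e, Cacna1g and Cacnb3 overlap no other counted gene.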

How the data were processed

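RNA was extracted with Trizol and QuantSeq 3′ libraries were sequenced in 35 runs, 3 per sample except dorsal cKO 64, which had 2. The submitters' processing notes name cutadapt, HISAT2, featureCounts and the build GRCm38. Versions and the strand setting are not given in the sources used. The deposited tables hold whole-number counts per gene and run. A signal in which the authors scaled these counts to library size lies beside them and was left aside. The authors' edgeR comparison of cKO with control adds, per the file headers, log2 values (fold change and mean CPM), the score of a likelihood ratio test and its p-value, raw and as a false discovery rate.

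All runs of a sample were added up, and the sums were tested in edgeR 4.0.16 (R 4.3.3) by its quasi-likelihood test. Scaling was by TMM, low genes were removed by filterByExpr on the groups, and the threshold was 0.05 after Benjamini-Hochberg adjustment. Genotype was fitted per region (15692 dorsal and 15102 ventral genes) and region and interaction over all 12 samples (16414 genes), with a gene missing from a table taken as 0 there. CPM levels carry the SD over samples. Depth was 5.12 to 15.9 M tags. Coordinates are from GENCODE M21, in which 99.83% of identifiers were found. Alternatives were DESeq2 1.42.0, voom of limma 3.58.1, other scalings, no filter or one at a mean of 10 counts, 1 run in place of all, each run as a library, genes in both tables, a replicate block, each sample left out, and, chosen after seeing the data, 2 pairs of samples with high or low choroid plexus levels left out. The scripts were tested on simulated data.

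The members, lists and tests were chosen with earlier results of these data known. Fold changes are given for each member past the threshold in the region comparison, the 4 with the lowest p per genotype comparison, the 3 lowest of the interaction, and of the interactors the 4 lowest by region and the 2 lowest per genotype comparison. Of the 35 members, 3 enter the fits, counts and sums but are not reported here one by one or plotted. Members named beyond this rule were chosen after their values were seen. The numbers 40, 41, 49 and 64 occur in both regions with the same genotype. Deviations of same-numbered samples correlated at 0.0353, 0.106, 0.0761 and -0.107 (consensus 0.0583), the labels do not call them animals, and the main fit has no block.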

Additional observations from a re-analysis of the deposited data

How the results depend on the processing

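Of the 12 members that differed between regions, 6 (Scn4b, Scn1a, Cacna1g, Cacna2d4, Cacnb4 and Scn3b) passed under every alternative in which they were tested. That was 25 alternatives for the rare Cacna2d4 and 26 for each of the others. All 12 kept their direction. With run 1 only, Cacna1b (adjusted p = 0.064), Cacnb3 (0.158), Cacna1e (0.0835) and Scn3a (0.492) were lost. A fixed replicate block by sample number uses fewer samples for the difference between regions, only those numbered 40, 41, 49 and 64. With it, 1411 genes passed by region in place of 2313, with 4 members higher and 5 lower. In controls 643 passed in place of 1290, with 0 members higher, and in cKO 513 in place of 1011, with 1 member higher. With the replicate block as an estimated correlation, 7 members were higher and 6 lower by region, among 2497 genes. Without ventral cKO 40 and 64, 1349 genes and 3 members higher remained by region, 1 member higher in controls, and 313 genes and 1 member higher in cKO. Without dorsal control 49 and dorsal cKO 64, 1 member was higher in controls, among 1039 genes. With run 1 only the counts were 1149 genes and 2 members higher by region, 675 genes, 0 members higher and 2 lower in controls, 423 genes and 1 member higher in cKO, 1 dorsal and 3 ventral genotype genes, and Cacna1b's dorsal genotype effect turned to -0.001. With runs as separate libraries they were 4002 genes and 12 members higher by region, 3219 genes, 7 members higher and 7 lower in controls, 2580 genes, 7 higher and 6 lower in cKO, 51 dorsal genotype genes, 399 ventral genotype genes with 1 member (Cacnb4), and 459 interaction genes. Without a filter 94 dorsal and 302 ventral genotype genes, 1 ventral member (Cacnb4, adjusted p = 0.00422) and 265 interaction genes passed. In the same setting 5 members were lower in cKO, among 1422 genes. DESeq2 gave 22, 9 and 34 genes for dorsal genotype, ventral genotype and interaction. DESeq2 and library size scaling each gave 5 members lower in cKO, among 1126 and 1014 genes.

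Leaving out each sample in turn gave 4 to 8 members higher and 6 to 8 lower by region, among 1844 to 2261 genes. In controls this gave 1 to 4 higher and 3 to 5 lower among 794 to 1292 genes, and in cKO 1 to 3 higher and 2 to 5 lower among 644 to 1074 genes. For genotype it gave 0 to 25 dorsal genes (25 without dorsal control 49) and 0 to 55 ventral genes (55 without ventral cKO 63), with 0 members in each, and for the interaction 0 to 4 genes (4 without dorsal cKO 40) and 0 members. The cause of these changes was not tested. Depth limits Cacna2d4, Hcn3, Hcn4, Scn7a and Scn9a, which had fewer than 100 tags in every sample.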
